A study of Bos taurus with 9 samples.

Results

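The genes described here are the MCM helicase and origin licensing genes, 10 of the 20679 genes listed in the deposited tables. They were taken by gene symbol, and all 10 were found: the helicase subunits MCM2, MCM3, MCM4, MCM5, MCM6 and MCM7, the loading factors ORC1, CDC6 and CDT1, and geminin (GMNN). The measured values played no part in the rule. RNA-seq was performed on fragments of bovine uterine gland, labelled as epithelial cells, on day 5 of 3D culture. In the control group (CYST, n = 3) the fragments were kept in Matrigel without EGF and formed cysts. In the second group (MAT, n = 3) they were kept in Matrigel with EGF and formed UG-LIKE structures, and in the third (MAT + COL, n = 3) type I collagen was added to the Matrigel together with EGF. All 3 media shared a DMEM/F12 base with bovine serum albumin, ascorbic acid, transferrin, sodium selenite and insulin. The uteri came from an abattoir at the luteal stage, and the fragments carry all cell types that stayed attached to an isolated gland. The labels give no dose of EGF or collagen, and they do not say whether replicates came from separate cows. The study speaks of individuals among its RNA-seq samples, without giving which library came from which. If the libraries of a group share an animal, the p-values below measure only a technical spread.

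Origin licensing is the step at which cells mark the places where DNA replication will start. The origin recognition complex, of which ORC1 is the largest subunit, binds DNA and recruits CDC6, and CDC6 and CDT1 then load the ring of MCM2 to MCM7 around the DNA before S phase. Geminin binds CDT1 and blocks further loading once replication is under way, and the loaded ring becomes the replicative helicase when CDC45 and the GINS complex join it. These genes are expressed in proliferating cells and are mostly silent in resting cells.

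The genes were located on the ARS-UCD2.0 assembly as follows. The helicase subunits lay on chromosome 22 (MCM2, 59895766 to 59912859), chromosome 23 (MCM3, 24694546 to 24711930), chromosome 14 (MCM4, 19550103 to 19563214), chromosome 5 (MCM5, 73633343 to 73661908), chromosome 2 (MCM6, 61489636 to 61526492) and chromosome 25 (MCM7, 36349393 to 36356839). CDC6 lay on chromosome 19 (40527872 to 40546070), CDT1 on chromosome 18 (14008487 to 14020966), GMNN on chromosome 23 (33008590 to 33019321) and ORC1 on chromosome 3 (93956195 to 93994012). The gene model of CDT1 spans 12480 bp, against 4357 bp for CDT1 in RefSeq, and contains the whole of APRT, which lies on the other strand and had 925 to 2179 counts per library. The model also shares 4615 bp with GALNS, likewise on the other strand, which had 80 to 363 counts. CDT1 itself had 15 to 68 counts. The CDC6 model shares 1202 bp with WIPF2 on the same strand, MCM4 shares 1125 bp with PRKDC, and ORC1 shares 33 bp with PRPF38A. The strand setting of the counting is not given in the sources used here, so reads in these overlaps cannot be told apart and CDT1 in particular is uncertain.

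Total counts per library ranged from 6568968 to 17948600, and all 10 genes passed the filter on low counts in every comparison. All 6 epithelial markers (EPCAM, CDH1, KRT8, KRT18, KRT19 and FOXA2) were detected. Their summed TPM (a level scaled to gene length and library size) was 16649 to 18423 in CYST, 27613 to 43306 in MAT and 28180 to 38520 in MAT + COL. None of the 6 passed the edgeR test described below in either comparison with CYST, although 4 in MAT and 3 in MAT + COL passed at an unadjusted p of 0.05, as did 20.7% and 21.7% of all genes. When same-numbered libraries were paired, 3 of 6 rose in MAT, where 592 of all 12074 genes were called higher. In MAT + COL 1 (KRT19) rose, where 335 of all 12509 genes were called higher. The summed TPM of 8 stromal fibroblast markers was 2225 to 4798 in CYST, 1191 to 3742 in MAT and 2197 to 4249 in MAT + COL. None of the 8 was called in either comparison with CYST without pairing. In MAT 7 of the 8 had a log2 fold change below 0, against 49.2% of all genes. With the libraries paired, DCN fell and VIM rose in MAT (edgeR log2 fold changes -1.12 and 1.05, adjusted p = 0.0252 and 0.0125), and none was called in MAT + COL. The summed TPM of 6 immune markers stayed between 19.6 and 48.4, with CD3E and MS4A1 under 1 TPM in every library. The part of these differences in the results on the licensing genes was not tested.

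The first comparison asked how the licensing genes differed between EGF-treated UG-LIKE structures and cysts. They were lower in MAT: 6 of the 10 (MCM2, MCM3, MCM5, MCM6, CDC6 and GMNN) fell by edgeR's quasi-likelihood test at an adjusted p under 0.05, and none rose. Over all genes tested, 0.944% were called lower by this test. With the replicate number as a block, 9 of the 10 were called lower, all but CDT1, against 5.67% of all genes. The median log2 fold change (Log2FC) of the 10 genes was -1.60, against 0.01 for all 12074 genes tested. In RNA from whole fragments, fewer cycling cells and less RNA of these genes per cell cannot be told apart.

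**Figure D1:**
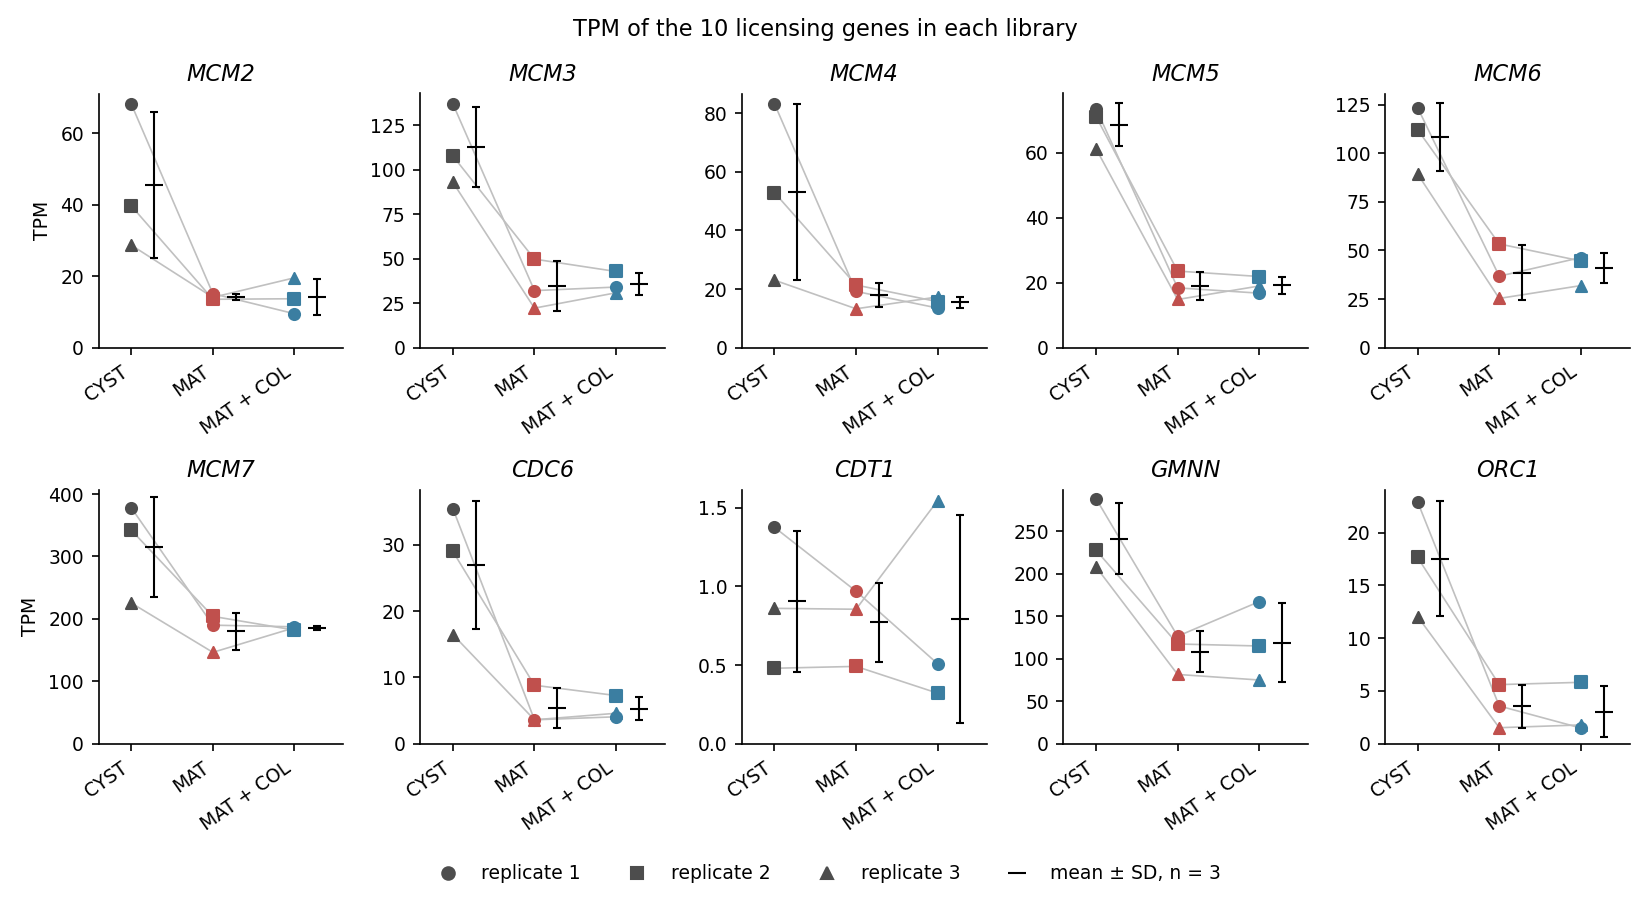
TPM (vertical axes, each from 0) of the 10 licensing genes in CYST, MAT and MAT + COL. Points are libraries, with same-numbered libraries joined by grey lines, and black marks show the mean ± SD of 3 libraries; for every gene except CDT1, the lowest CYST library lies above the highest library of either EGF-treated group.

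Among the helicase subunits, MCM5 had the most even levels in CYST. Its TPM was 73.7, 71.2 and 61.3 in CYST replicates 1, 2 and 3, 18.4, 23.6 and 14.9 in MAT, and 16.8, 21.9 and 19.0 in MAT + COL. The CYST libraries were all above 60 and those of both EGF-treated groups all below 25. MCM5 fell in MAT by 3.65-fold (95% interval 2.65 to 5.04, Log2FC -1.87 ± 0.20 (SE), n = 3, edgeR adjusted p = 0.0165). It was the only one of the 10 called under each of the 10 alternatives that used all 6 libraries.

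MCM3 and MCM6 followed the same order. MCM3 was at 137, 108 and 93.0 TPM in CYST and at 32.1, 49.8 and 22.3 in MAT, and it fell by a Log2FC of -1.71 ± 0.29 (edgeR adjusted p = 0.0403). MCM6 was at 123, 112 and 89.3 TPM in CYST and at 36.8, 53.4 and 25.4 in MAT, with a Log2FC of -1.50 ± 0.26 (edgeR adjusted p = 0.0434). In both genes MAT replicate 2 was the highest of the MAT libraries and stayed well below the lowest cyst library.

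MCM2 and MCM4 varied more among the cysts. MCM2 was at 68.2, 39.7 and 28.7 TPM in CYST, whereas its MAT libraries were close together at 15.1, 13.6 and 14.1. It fell by a Log2FC of -1.66 ± 0.28 (edgeR adjusted p = 0.0403). MCM4 was at 83.2, 52.9 and 23.1 TPM in CYST and at 19.2, 21.4 and 13.3 in MAT, so that CYST replicate 3 was only just above MAT replicate 2. Its Log2FC of -1.53 ± 0.38 did not pass the test (edgeR adjusted p = 0.0772) and did so with the replicate block (adjusted p = 0.0169).

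MCM7 was the most abundant of the 10 genes in all 9 libraries and had the smallest Log2FC of the helicase subunits. Its TPM was 378, 342 and 225 in CYST, 190.0, 204 and 146 in MAT, and 187, 182 and 186 in MAT + COL. The groups did not overlap, but the Log2FC of -0.80 ± 0.20 did not pass the test without the block (edgeR adjusted p = 0.0772) and passed it with the block (adjusted p = 0.0256). Its 95% interval, a 1.26- to 2.40-fold lower level in MAT, did not reach that of MCM5, which began at 2.65-fold. MCM5 had the largest fall of the helicase subunits, and the intervals of MCM2, MCM3, MCM4 and MCM6 overlapped that of MCM7. Whether MCM7 differed from the other subunits in its Log2FC was not tested.

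The make-up of the helicase transcripts was described by the share of each subunit. Only the share of MCM7 was tested, and with 3 against 3 libraries that test could not reach a p under 0.05. The share restates the smaller fall of MCM7 given above and is not separate support for it. The summed TPM of MCM2 to MCM7 was 703 ± 172 (SD, n = 3) in CYST, 305 ± 65.0 in MAT and 311 ± 8.67 in MAT + COL. MCM7 made up 43.8%, 47.1% and 43.3% of that sum in the 3 CYST libraries, 61.0%, 55.8% and 62.0% in MAT, and 60.9%, 56.7% and 61.0% in MAT + COL. All 6 EGF-treated libraries were above all 3 cysts. The mean share was 14.8 percentage points higher in MAT than in CYST (exact permutation test, two-sided, p = 0.1, the smallest that 3 against 3 libraries allow; adjusted p = 0.225 over the 27 share and ratio comparisons made). Per library, MCM7 stood at 5.13, 4.81 and 3.68 times the TPM of MCM5 in CYST and at 10.3, 8.64 and 9.85 times in MAT. MCM5 made up 8.53%, 9.81% and 11.8% of the sum in CYST and 6.22% ± 0.275 in MAT, and MCM3 16.2% ± 1.52 in CYST and 11.1% ± 2.21 in MAT. The shares of MCM2 (5.46% to 7.89% in CYST, 3.71% to 5.97% in MAT), MCM4 (4.43% to 9.64%, 5.62% to 6.17%) and MCM6 (14.3% to 17.1%, 10.7% to 14.6%) overlapped between these groups.

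**Figure D2:**
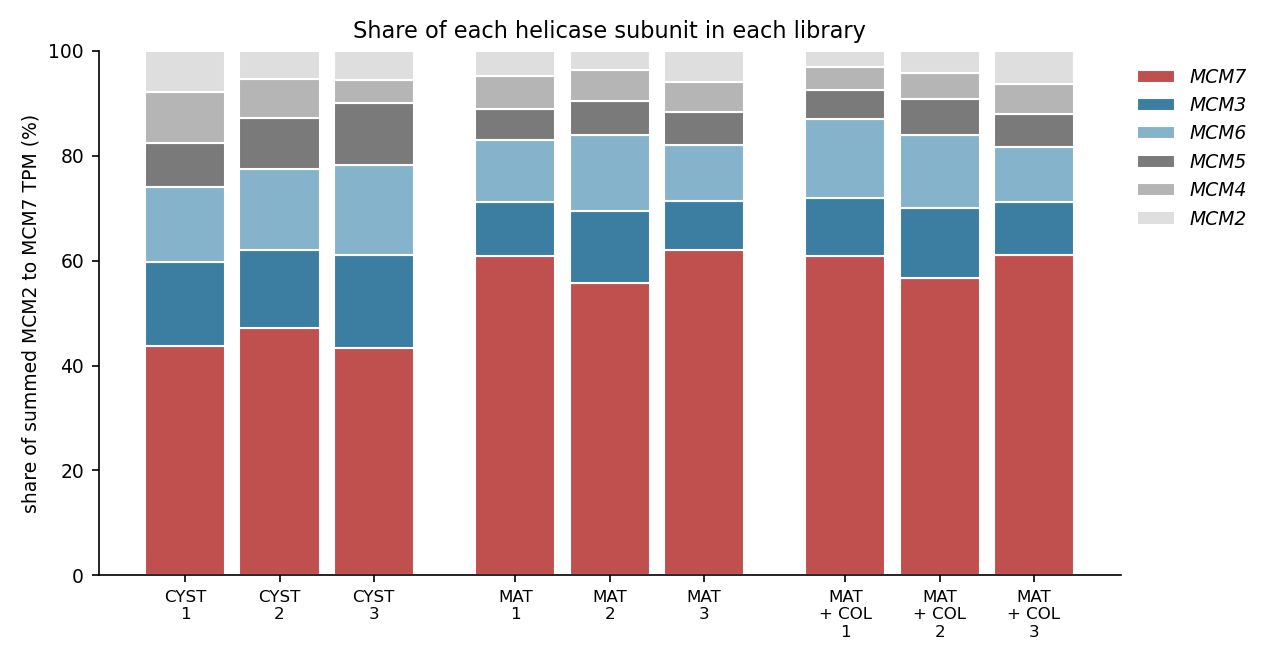
Share (%) of each subunit in the summed TPM of MCM2 to MCM7, 1 bar per library, ordered by group and replicate. The MCM7 share is 43.3% to 47.1% in CYST and 55.8% to 62.0% in the EGF-treated libraries.

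The loading factors CDC6 and ORC1 had the largest differences of the 10. CDC6, the ATPase that works with ORC to load the helicase, was at 35.4, 29.0 and 16.5 TPM in CYST, 3.61, 8.82 and 3.61 in MAT, and 4.06, 7.27 and 4.60 in MAT + COL. The lowest cyst library was well above the highest EGF-treated library, MAT replicate 2. CDC6 fell in MAT by 4.92-fold (95% interval 2.50 to 9.71, Log2FC -2.30 ± 0.42, edgeR adjusted p = 0.0462).

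ORC1 was at 22.9, 17.7 and 12.1 TPM in CYST and at 3.58, 5.60 and 1.52 in MAT. Its Log2FC of -2.29 ± 0.46 was as large as that of CDC6, but the adjusted p of 0.0534 by edgeR missed the threshold, and with the replicate block it was 0.0116. In MAT + COL it was at 1.49, 5.82 and 1.78 TPM, so that replicate 2 was the highest library in both EGF-treated groups. Over the 3 groups, the ratio of CDC6 to ORC1 did not separate the libraries (1.37 to 1.64 in CYST, 1.01 to 2.37 in MAT).

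CDT1 differed from the other members in that its groups overlapped. Its TPM was 1.38, 0.480 and 0.861 in CYST, 0.970, 0.492 and 0.855 in MAT, and 0.508, 0.322 and 1.55 in MAT + COL, with only 15 to 68 counts per library. The Log2FC in MAT was -0.25 ± 0.62 (95% interval -1.69 to 1.19, edgeR adjusted p = 0.861). This interval includes the Log2FC of MCM2, MCM4, MCM6, MCM7 and GMNN. A change of CDT1 was not detected at this depth, within a gene model that also covers APRT and part of GALNS.

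GMNN, the inhibitor of CDT1, was the second most abundant member in all 9 libraries. It was at 288, 228 and 208 TPM in CYST, 127, 117 and 81.6 in MAT, and 167, 115 and 75.0 in MAT + COL. The lowest cyst library was above every EGF-treated library, and GMNN fell in MAT by 2.25-fold (95% interval 1.60 to 3.15, Log2FC -1.17 ± 0.21, edgeR adjusted p = 0.0450). The TPM of GMNN was 7.86 to 12.6 times that of CDC6 in CYST and 13.3 to 35.1 times in MAT (exact permutation test, two-sided, p = 0.1, adjusted p = 0.225).

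In TPM, 9 of the 10 genes had non-overlapping ranges in CYST and MAT with MAT lower, against 11.8% of all genes tested. Within same-numbered pairs of libraries, 10, 9 and 10 of the 10 genes were lower in MAT in replicates 1, 2 and 3, with median differences of -2.01, -1.10 and -1.76 log2 CPM (counts scaled to library size). The single positive value was CDT1 in replicate 2 (0.13). The differences were smallest in replicate 2 for MCM3, MCM5, MCM6, MCM7, CDC6, GMNN and ORC1, and in replicate 3 for MCM2 and MCM4. Leaving out 1 library kept the sign of 9 genes but not the calls. None of the 10 was called without CYST replicate 1, CYST replicate 2 or MAT replicate 1, where 7, 5 and 9 of all genes were called. Where so few genes are called, 0 of 10 says little about the licensing genes. Without MAT replicate 3, 1 (MCM5) was called, against 122 of all genes. Without CYST replicate 3 or MAT replicate 2, 4 were called, against 267 and 32 of all genes. With the block, 0, 8 and 9 were called without replicate 1, 2 and 3, against 36, 614 and 1867 of all genes.

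**Figure D3:**
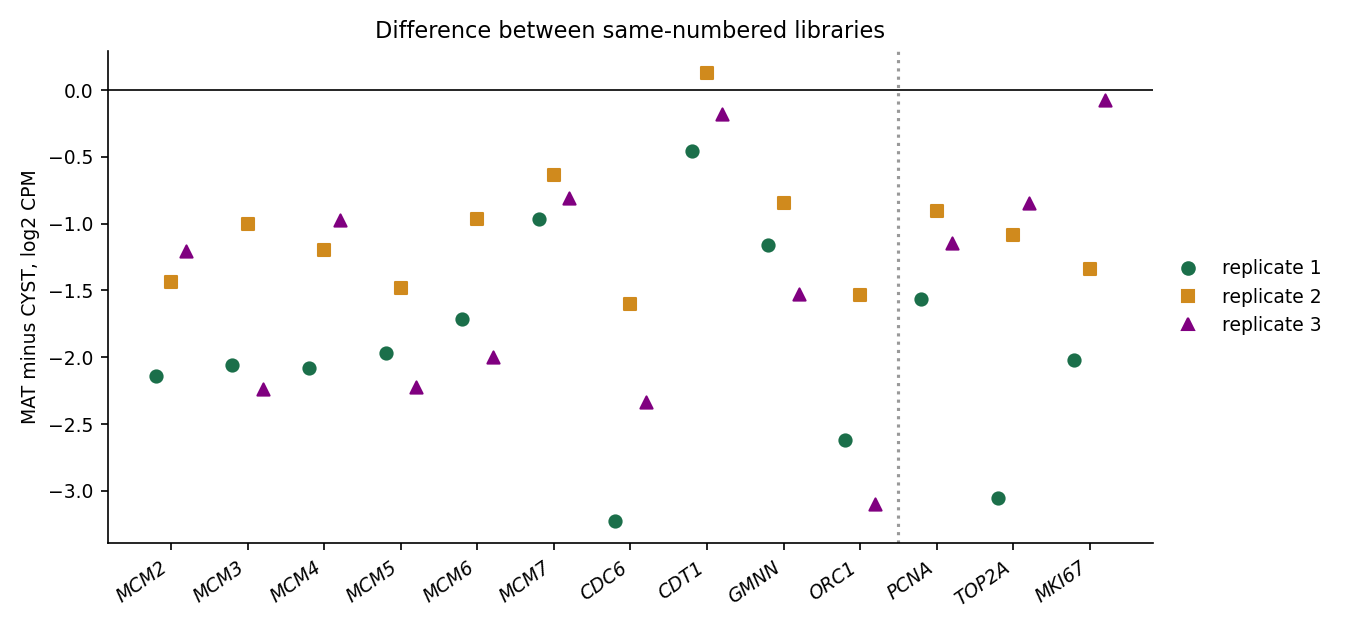
Difference in log2 CPM between the MAT and the CYST library of the same replicate number, for the 10 licensing genes and, right of the dotted line, PCNA, TOP2A and MKI67. All licensing genes but CDT1 lie below 0 in each of the 3 pairs, as do PCNA, TOP2A and MKI67. MKI67 is close to 0 (-0.07) in replicate 3.

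The differences of the licensing genes were set beside those of 3 general markers of proliferation. PCNA, the clamp of the replicative polymerases, fell by a Log2FC of -1.19 ± 0.21 (edgeR adjusted p = 0.0414) and was lower in every pair, by -1.56, -0.91 and -1.14 log2 CPM. TOP2A, a topoisomerase of late S phase and mitosis, was lower by -3.05, -1.08 and -0.85, and MKI67, which encodes Ki67, by -2.02, -1.34 and -0.07. MKI67 was at 9.61 TPM in CYST replicate 3 and at 10.4 in MAT replicate 3. In the same pair the licensing genes ran from -3.10 (ORC1) to -0.18 (CDT1) log2 CPM, with a median of -1.76. MCM7 (-0.80) and MCM4 (-0.97) lay near TOP2A there. The Log2FC of MKI67 was -1.12 ± 0.42 (edgeR adjusted p = 0.181, with the block 0.0767) and that of TOP2A -1.44 ± 0.49 (adjusted p = 0.153, with the block 0.0453). Whether these genes differed from the licensing genes was not tested.

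Collagen I in the gel was then compared with Matrigel alone under EGF. None of the 10 licensing genes was called in MAT + COL against MAT, and none (0%) of the 12470 genes tested was called by edgeR, with or without the block, or by DESeq2. At an unadjusted p under 0.05 there were 51 genes (0.409%) without the block and 618 (4.96%) with it, and none of the 10 was among either. The Log2FC ran from -0.28 (ORC1) to 0.04 (GMNN), with a median of -0.04, and all 10 TPM ranges overlapped, while 0.818% of all genes had non-overlapping ranges with MAT + COL lower and 2.75% with MAT + COL higher. The 95% intervals were narrowest for MCM7 (-0.39 to 0.33) and MCM5 (-0.55 to 0.47). They were widest for CDT1 (-1.71 to 1.73) and ORC1 (-1.87 to 1.30). With 3 libraries per group, the data do not exclude differences within these intervals. The intervals are not limits of detection at an adjusted p under 0.05.

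The small differences with collagen I varied by replicate. In replicate 1, 7 of the 10 genes were lower in MAT + COL (median difference -0.21 log2 CPM), in replicate 2, 9 of 10 (-0.24), and in replicate 3, 1 of 10 (0.31). MCM2 was at 15.1, 13.6 and 14.1 TPM in MAT and at 9.51, 13.7 and 19.6 in MAT + COL, lower in the first pair, level in the second and higher in the third. MCM7 was more even in MAT + COL (185 ± 2.72 TPM, SD) than in MAT (180 ± 30.0). The SD was also smaller in MAT + COL for MCM3, MCM4, MCM5, MCM6 and CDC6. It was larger for MCM2 (5.05 against 0.794), GMNN (46.3 against 23.8), CDT1 and ORC1. Total counts ranged from 6568968 to 17936445 in MAT and from 16665013 to 17948600 in MAT + COL.

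The MAT + COL libraries were also compared with the same 3 CYST libraries, so the values stand beside those of MAT but are not a second, separate comparison. Here 4 of the 10 genes fell (MCM3, MCM5, MCM6 and CDC6), against 0.815% of all 12509 genes, and with the block 6 (also GMNN and ORC1), against 2.58%. By edgeR, MCM5 had a Log2FC of -1.89 ± 0.18 (adjusted p = 0.0162), MCM3 of -1.70 ± 0.19 (adjusted p = 0.0259), MCM6 of -1.47 ± 0.17 (adjusted p = 0.0259) and CDC6 of -2.37 ± 0.34 (adjusted p = 0.0338). ORC1 (-2.56), MCM4 (-1.78), MCM2 (-1.69), GMNN (-1.10) and MCM7 (-0.81) had adjusted p-values of 0.0636 to 0.0702, and CDT1 (-0.21) one of 0.904. The TPM ranges of 9 of the 10 genes did not overlap those of CYST, against 10.3% of all genes. None of the 10 was called without CYST replicate 1, CYST replicate 2, MAT + COL replicate 1 or MAT + COL replicate 2. In the same order, these fits called only 7, 4, 6 and 3 of all genes.

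**Figure D4:**
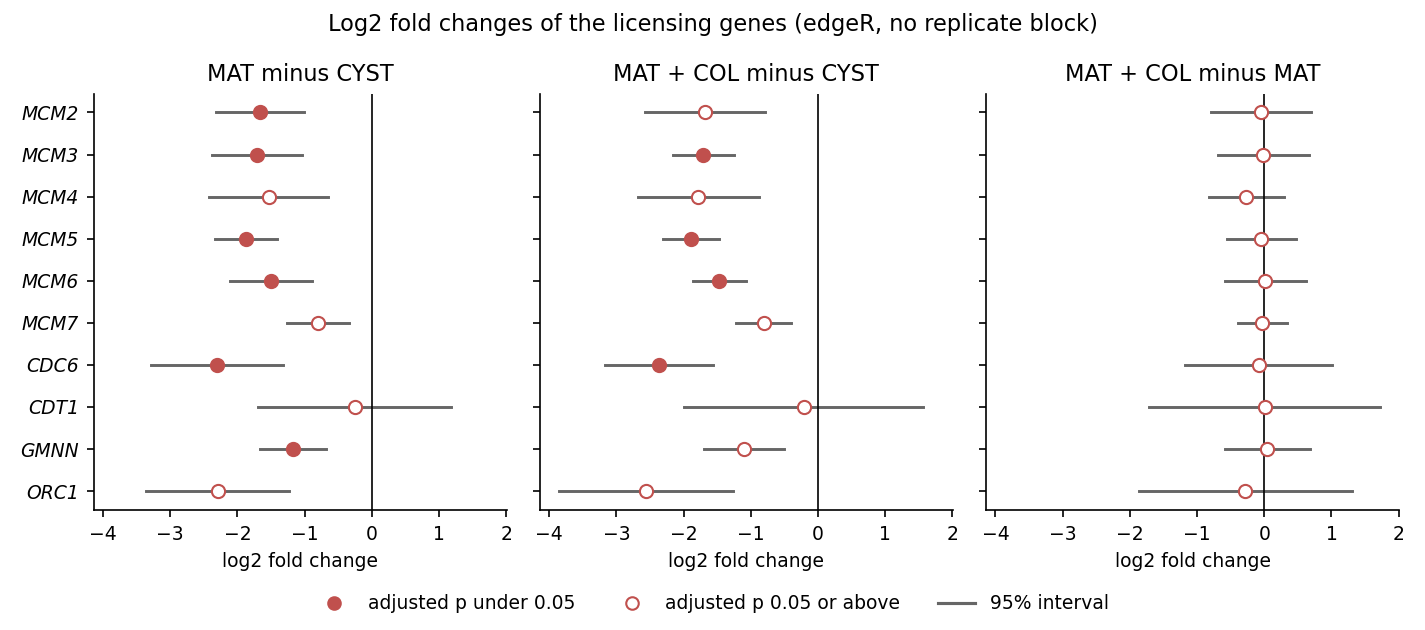
Log2FC (horizontal axes) of the 10 licensing genes in MAT and MAT + COL against the same CYST libraries and in MAT + COL against MAT, by edgeR without the replicate block. Lines are 95% intervals and filled points have an adjusted p under 0.05: 6, 4 and 0 genes in the 3 panels.

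The order of the members by TPM was much the same in every group. MCM7, GMNN, CDC6, ORC1 and CDT1 held ranks 1, 2, 8, 9 and 10 in all 9 libraries, and MCM2 to MCM6 lay between them. In CYST the mean TPM was 315 for MCM7, 241 for GMNN, 113 for MCM3, 108 for MCM6, 68.7 for MCM5, 53.1 for MCM4, 45.5 for MCM2, 27.0 for CDC6, 17.5 for ORC1 and 0.906 for CDT1. Of neighbours in this order, only GMNN and MCM3, MCM6 and MCM5, and ORC1 and CDT1 had ranges that did not overlap in CYST. In MAT and MAT + COL the mean of MCM6 (38.5 and 41.0) was above that of MCM3 (34.7 and 36.0), and MCM6 was above MCM3 in all 3 libraries of both groups.

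Other replication genes were read from lists of related genes. Over all genes tested, 0.944% were called lower in MAT without the block and 5.67% with it. Among the other ORC subunits and partners, 1 of 6 tested genes fell in MAT, ORC5 (Log2FC -1.62 ± 0.30, edgeR adjusted p = 0.0462), from 21.9, 24.4 and 18.6 TPM in CYST to 5.00, 8.77 and 7.28. ORC6 had a Log2FC of -1.02 and ORC3 of -0.68 without passing, and ORC2, ORC4 and LRWD1 lay between -0.03 and 0.36. The median of the 6 was -0.35. The subunits of this complex therefore ranged from the -2.29 of ORC1 and the -1.62 of ORC5 to values above 0.

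Among the other MCM family and MCM-binding genes, none of 6 tested genes was called by edgeR without the block, where 2 had an unadjusted p under 0.05, against 20.7% of all genes. MCM10, which links the helicase to the polymerase, had a Log2FC of -1.30 ± 0.28 (edgeR adjusted p = 0.0569) and fell in the fit with the block (adjusted p = 0.0152). HROB, a partner of MCM8 and MCM9, had the lowest Log2FC (-1.61, adjusted p = 0.135) and MCM8 one of -0.61. MCM9 (0.32), MCM3AP (0.32) and MCMBP (0.59) had positive values that did not pass, and the median was -0.15. MCMDC2 was too low to be tested.

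Origin firing factors and CMG partners are the proteins that turn the loaded ring into an active helicase. All 14 had a Log2FC below 0 (49.2% of all genes), with a median of -1.03. In replicate 3, TICRR (0.43), TOPBP1 (0.10) and DONSON (0.35 log2 CPM) were higher in MAT than in CYST. DONSON had only 3 to 36 counts in the CYST and MAT libraries. WDHD1 (-1.40 ± 0.22, edgeR adjusted p = 0.0349), which ties the helicase to DNA polymerase alpha, and CDC45 (-1.27 ± 0.25, adjusted p = 0.0496) fell, 2 of 14, against 0.944% of all genes. With the block, 5 of 14 fell (also GINS1, GINS2 and GINS4), against 5.67% of all genes. GINS2 had the lowest value (-2.18 ± 0.43, adjusted p = 0.0503, with the block 0.0131), with 46.9, 35.5 and 28.8 TPM in CYST and 7.87, 13.0 and 3.67 in MAT. It was followed by DBF4B (-1.77, adjusted p = 0.159) and GINS4 (-1.65, adjusted p = 0.0830).

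The list on turnover and control of CDT1 and CDC6 also holds general cell cycle genes, among them CDK2 and cyclin genes. None of its 15 tested genes was called by edgeR without the block, where 9 had an unadjusted p under 0.05 (20.7% of all genes). With the block 6 fell (DTL, CDC20, CDK2, CCNA2, CCNE1 and CCNE2), against 5.67% of all genes. DTL, the receptor through which the CUL4 ligase destroys CDT1 in S phase, had the lowest value (-1.81 ± 0.45, edgeR adjusted p = 0.0772, with the block 0.0214), and the cyclin genes CCNA2 and CCNE2 followed with -1.49 and -1.47. CUL4B (0.76) and DDB1 (0.46), parts of the same ligase, were above 0 and did not pass. Of 10 tested genes of the cell cycle list, 2 fell without the block, PCNA and RRM2, a ribonucleotide reductase subunit (-1.92 ± 0.36, edgeR adjusted p = 0.0462), and 6 with it. E2F8 (-1.69) and CCNB1 (-1.47) came next, and CCND1 (0.33) was the only one above 0. E2F1 and E2F2 were too low to be tested. Over the 5 lists, 5 of 51 tested genes fell without the block and 19 with it, and none rose. Of all genes tested, 0.944% and 5.67% were called lower in these 2 fits.

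**Figure D5:**
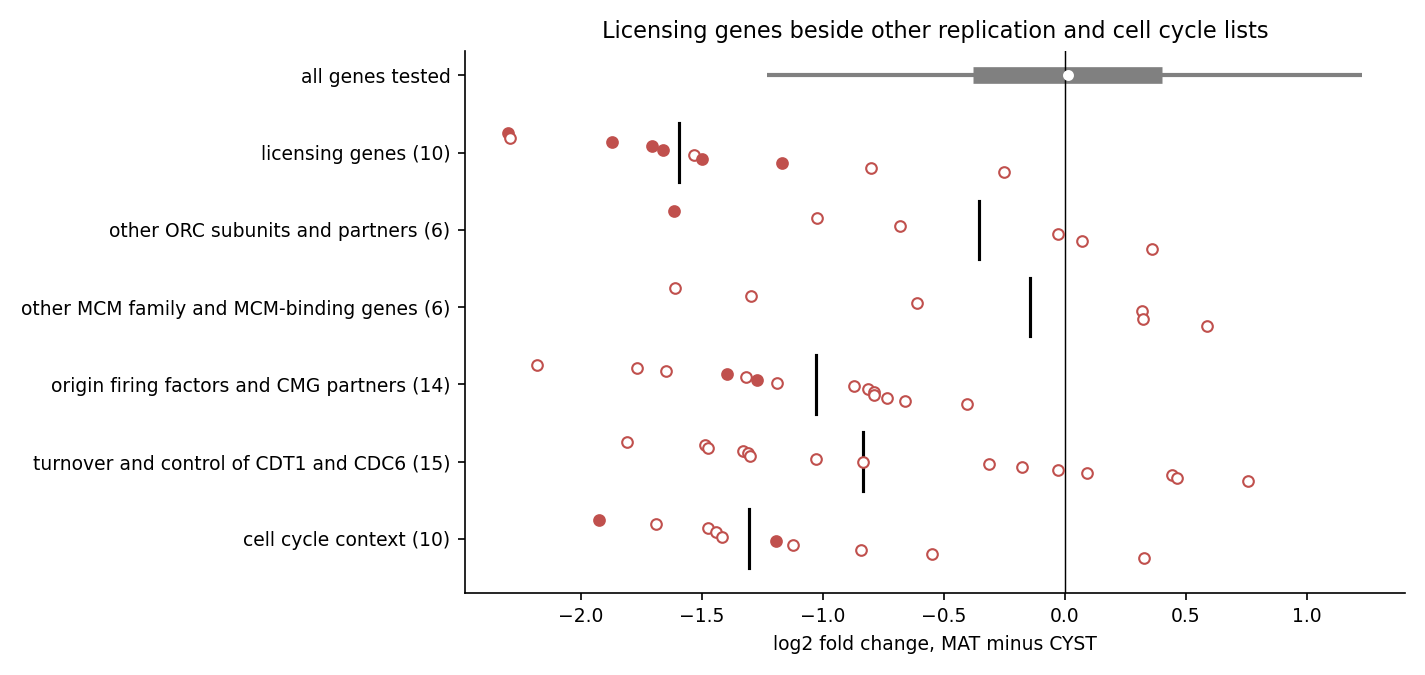
Log2FC of MAT against CYST (horizontal axis) for each tested gene of the licensing set and the 5 related lists (number tested in parentheses), filled where the edgeR adjusted p without the block is under 0.05, with a black line at each median. The grey bar spans the 25th to 75th percentiles of all 12074 genes (-0.38 to 0.40), the thin line the 5th to 95th percentiles (-1.23 to 1.23); the licensing genes have the lowest median, -1.60.

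In MAT + COL against CYST, 7 of 52 tested genes of these lists fell (GINS1, GINS2, WDHD1, DTL, CCNE2, PCNA and RRM2), against 0.815% of all genes, and none rose. GINS2 had a Log2FC of -2.24 ± 0.26 (edgeR adjusted p = 0.0259), CCNE2 of -1.76 ± 0.28 and DTL of -1.75 ± 0.28 (both adjusted p = 0.0383). With the block, 9 fell (also ORC5 and MCM10), against 2.58% of all genes, and CUL4B rose (0.93, edgeR adjusted p = 0.0426). In MAT + COL against MAT, none of the 51 tested genes was called.

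Outside the licensing set, the genes whose pattern over the 9 libraries lay closest to the mean of the 10 were SLC25A5, IFT56, ALG3, TRIP13 and PCNA. Likeness was the root mean square difference in centred log2 CPM, which was 0.131, 0.200, 0.214, 0.214 and 0.216 for these genes against a median of 0.906 over 12858 genes. SLC25A5, which encodes a mitochondrial ADP/ATP carrier, was at 689, 583 and 414 TPM in CYST, 183, 215 and 166 in MAT, and 197, 194 and 204 in MAT + COL. TRIP13, an ATPase of the mitotic checkpoint, was at 64.5, 49.4 and 35.2 TPM in CYST, 16.3, 13.3 and 14.2 in MAT, and 14.3, 15.7 and 15.4 in MAT + COL. Among the members themselves, MCM3 (0.190), MCM5 (0.216) and MCM6 (0.222) were closest to the mean, and CDC6 (0.489), ORC1 (0.717) and CDT1 (0.921) farthest. The mean includes the members, and the value for each of them is a description with no test.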

How the data were processed

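Libraries were grouped by their labels into CYST, MAT and MAT + COL, 3 each. Reads were trimmed and mapped to the ARS-UCD2.0 genome by the authors with the default settings of CLC Genomics Workbench. They deposited raw counts per gene, and TPM values (scaled to gene length and library size) of the same genes. The annotation release and strand setting are not given in the sources used here. All per-sample columns were used. Gene positions are those of the count table, and RefSeq positions those of its ARS-UCD2.0 gene table. No sequences are given, because none were used here.

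Counts were tested in R 4.3.3 with edgeR 4.0.16 (TMM, filterByExpr with a minimum count of 10, quasi-likelihood test) for the 6 libraries compared each time. P-values were adjusted by Benjamini-Hochberg across every tested gene and called at an adjusted p under 0.05. The tests were run on simulated data first. Log2 CPM used a prior count of 2. Single ratios, the MCM7 share and the summed TPM were compared by exact permutation. These tests were not planned: the plan gave shares and ratios as description without a test. The genes, the 5 lists, the marker lists and the naming rule (all members, the called and the 3 most changed genes of each list, and the 5 nearest patterns) were chosen with earlier results of these data known. The genes named beyond that rule, among them TOP2A, MKI67 and those given as near 0 or above 0, were chosen after their values were seen.

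The sample titles number replicates 1 to 3 in every group, and these numbers are used here. The deposited column names carry other numbers, which differ between the groups. Deviations from the group means, across genes, correlated between same-numbered libraries in MAT and CYST (0.329, 0.437 and 0.396), MAT + COL and MAT (0.471, 0.613 and 0.687) and MAT + COL and CYST (0.278, 0.350 and 0.347), each above 0.1, so the numbers were taken to pair the libraries. Differently numbered libraries gave -0.524 to 0.111, all below the same-numbered values. The highest, for CYST replicate 2 and MAT + COL replicate 1, was also above 0.1. The pairing comes from these correlations. The labels do not state it, and the study, which speaks of individuals, does not tie the numbers to them. The block is an alternative fit because the study's methods name none.

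Depth was 6568968 to 17948600 counts per library. Counts come from reads without molecular identifiers. Alternatives were the replicate block, the study's criteria for DEGs (also a Log2FC beyond 1 and a TPM above 1), RLE size factors, no filter on low counts, DESeq2 1.42.0, all 9 libraries in 1 fit, thinning to the smallest library, limma 3.58.1 on log2(TPM + 1) or log2(TPM + 0.1), and leaving out each library. All 9 libraries with the block was added after the data had been seen.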

Additional observations from a re-analysis of the deposited data

How the results depend on the processing

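The 9 licensing genes other than CDT1 were lower in both EGF-treated groups than in CYST under all alternatives, those that leave out a library included; the calls were less stable than the directions. The median Log2FC of the 10 genes stayed between -1.61 and -1.52 in MAT against CYST with all libraries and between -1.78 and -1.34 with 1 library left out. In MAT + COL against CYST it was -1.80 to -1.36 with 1 library left out (-1.36 without CYST replicate 1).

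Of the 10 genes, 6 were called in MAT against CYST and 1 by limma on log2(TPM + 1) with no filter, 0 to 4 with 1 library left out, and 0 to 9 with the block and 1 number left out. In MAT + COL against CYST, where 4 were called, DESeq2, the fit of all 9 libraries and that fit with the block each called 9, limma with no filter 2, and the fits without 1 library 0 to 5.

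With the replicate block, the pairing moved the count of all genes called from 216 to 1277 in MAT against CYST (726 by the study's criteria) and from 186 to 658 in MAT + COL against CYST (433). For the licensing genes it changed the calls of MCM4, MCM7 and ORC1 in MAT and of GMNN and ORC1 in MAT + COL, and no other. In the same order of comparisons, DESeq2 called 1278 and 1500 genes, all 9 libraries 580 and 601, all 9 with the block 2118 and 2035, and limma with no filter 71 and 53. Leaving out 1 library gave 5 to 267 and 3 to 186 genes, and with the block 36 to 1867 and 109 to 2406. For collagen I, 0 genes became 1 and 46 with the block and without replicate 2 and 3.

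Among the licensing genes, signs turned only for CDT1 and within the small differences between MAT + COL and MAT. There, MCM3 was 0.033 with the block, 0.015 with all 9 libraries and the block, 0.018 after thinning and 0.11 in each limma fit. By limma on log2(TPM + 1), with the filter and without it, MCM5 was 0.036, MCM7 0.053, CDC6 0.056 and CDT1 -0.034, and with + 0.1 they were 0.038, 0.053, 0.077 and -0.17. CDT1 was -0.26 with the block and -0.20 with all 9 libraries and the block. With 1 library, or with the block 1 number, left out, MCM2 ran from -0.40 to 0.21, MCM3 from -0.24 to 0.33, MCM5 from -0.21 to 0.14, MCM6 from -0.20 to 0.32, MCM7 from -0.18 to 0.076, CDC6 from -0.37 to 0.48, CDT1 from -1.01 to 0.39, GMNN from -0.21 to 0.26 and ORC1 from -1.17 to 0.21. CDT1 ran from -0.55 to 0.13 in MAT and from -1.24 to 0.14 in MAT + COL against CYST. In the latter, ORC2 ran from -0.025 to 0.53 and MCMBP from -0.22 to 0.96. The cause of these shifts was not tested. CDT1 had 15 to 68 counts per library and a gene model that contains APRT and part of GALNS.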
